A study of Mus musculus with 12 samples.

Results

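Transcripts of 10 genes that control or carry out bone resorption around the erupting tooth were followed in the mouse molar germ with and without intact Nfic. The genes were taken by symbol from a table of 25899 genes, and 10 of 10 were found. They comprise the cytokines Csf1, Tnfsf11 and Pthlh, the receptors Tnfrsf11a and Pth1r, the decoy receptor Tnfrsf11b, and the osteoclast genes Acp5, Ctsk, Mmp9 and Atp6v0d2. Of these, 7 had a mean of 1 RPKM (reads per kilobase of transcript, scaled to 1 M reads a library) or more over all libraries. Tnfsf11, Tnfrsf11a and Atp6v0d2 lay under that level.

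A tooth erupts only when osteoclasts open a path through the overlying alveolar bone. Osteoclasts arise from cells of the macrophage lineage under colony stimulating factor 1 (Csf1) and the ligand RANKL (Tnfsf11), which binds the receptor RANK (Tnfrsf11a) on the precursors, while osteoprotegerin (Tnfrsf11b) binds the same ligand as a soluble decoy. In the mouse tooth, parathyroid hormone-related protein (Pthlh) made by the enamel organ acts on its receptor Pth1r in the surrounding mesenchyme, and this signal is required for eruption.

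RNA was sequenced from the root-forming, apical part of mandibular first molars of C57BL/6 mice at postnatal day 4. One group of 6 libraries came from Nfic-/- mice (null) and the other group of 6 came from Nfic+/- littermates (heterozygous), which carry 1 intact copy, so no wild-type molar enters any comparison. Nfic encodes a transcription factor of the nuclear factor I family that is needed for molar root formation. The labels give the genotype and no further detail of the allele, and do not say whether a library holds the molars of more than 1 animal. Each genotype has libraries numbered 5 to 10.

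The libraries held 70.2 to 96.4 M reads each, as inferred from the values of genes without reads. Tooth markers, picked to check the tissue, were abundant, with the enamel protein gene Amelx at a mean of 65219 RPKM and the dentin gene Dspp at 614 ± 129 RPKM (SD, n = 6) in heterozygous molars and at 445 ± 135 RPKM (SD, n = 6) in null ones. Nfic itself was measured at 16.8 ± 4.42 RPKM (SD, n = 6) in the heterozygous and at 11.4 ± 3.02 RPKM (SD, n = 6) in the null group, a difference of -0.52 in log2(RPKM + 1) (exact 2-sided permutation test, p = 0.0303). This p was 0.0541 without null replicate 6, and lay between 0.0519 and 0.143 in 5 other settings that left libraries out. The difference was -0.57 within libraries 5 to 7 and -0.47 within libraries 8 to 10. These are totals over the gene, which do not test which exons are present. Null replicate 6 stood apart: it had the lowest value of all 12 libraries in 7 of the 10 genes, and also the lowest sums of macrophage, neutrophil, bone, dental follicle and odontoblast markers. Its sum of enamel markers was high, at 140049 RPKM, below only heterozygous replicate 5 at 142043 RPKM. The same library had the fewest reads (70.2 M) and the fewest genes at 1 RPKM or more (11014). Libraries 8 and 9 of both genotypes carried intestinal transcripts, with 166.7 to 307.1 RPKM summed over 12 intestine markers. In the other 8 libraries that sum was 0.118 to 0.438 RPKM. The column headers further separate libraries 5 to 7 from libraries 8 to 10 by repeated numbering, with 3 libraries of each genotype on each side, so values within each set are given beside the pooled ones.

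No gene in the set differed between the genotypes beyond the spread of the libraries. In limma over the 12094 genes at 1 RPKM or more, 0 genes passed a Benjamini-Hochberg adjusted p of 0.05, which is 0% of those tested, and 646 (5.34%) had an unadjusted p under 0.05. Of the 7 members in that table, 0 passed and 0 had an unadjusted p under 0.05. The other 3 were read from the fit without a filter on low values, where 0 of 21002 genes (0%) passed the adjusted threshold and 926 (4.41%) had an unadjusted p under 0.05. Mean log2(RPKM + 1) was lower in null molars for 6 of the 7 members in the filtered table, beside 51.1% of all genes tested there. It was lower for all 3 that were below the filter, beside 11771 of the 21002 genes in the fit without a filter. Of the 10 genes, Tnfrsf11b alone was higher. The adjusted p was 0.980 for Csf1 and 0.99997 for each of the other 9 genes. For Nfic, the targeted gene, limma over the filtered table gave an adjusted p of 0.934. The absence of calls therefore does not show that the genotypes are alike in these genes. The value ranges of the genotypes overlapped in every one of the 10 genes. Without the libraries numbered 8 and 9 the differences kept their signs and ran from -0.61 for Ctsk to 0.06 for Tnfrsf11b. In a whole-tissue sample, fewer cells of a type and less RNA per cell cannot be told apart.

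**Figure D1:**
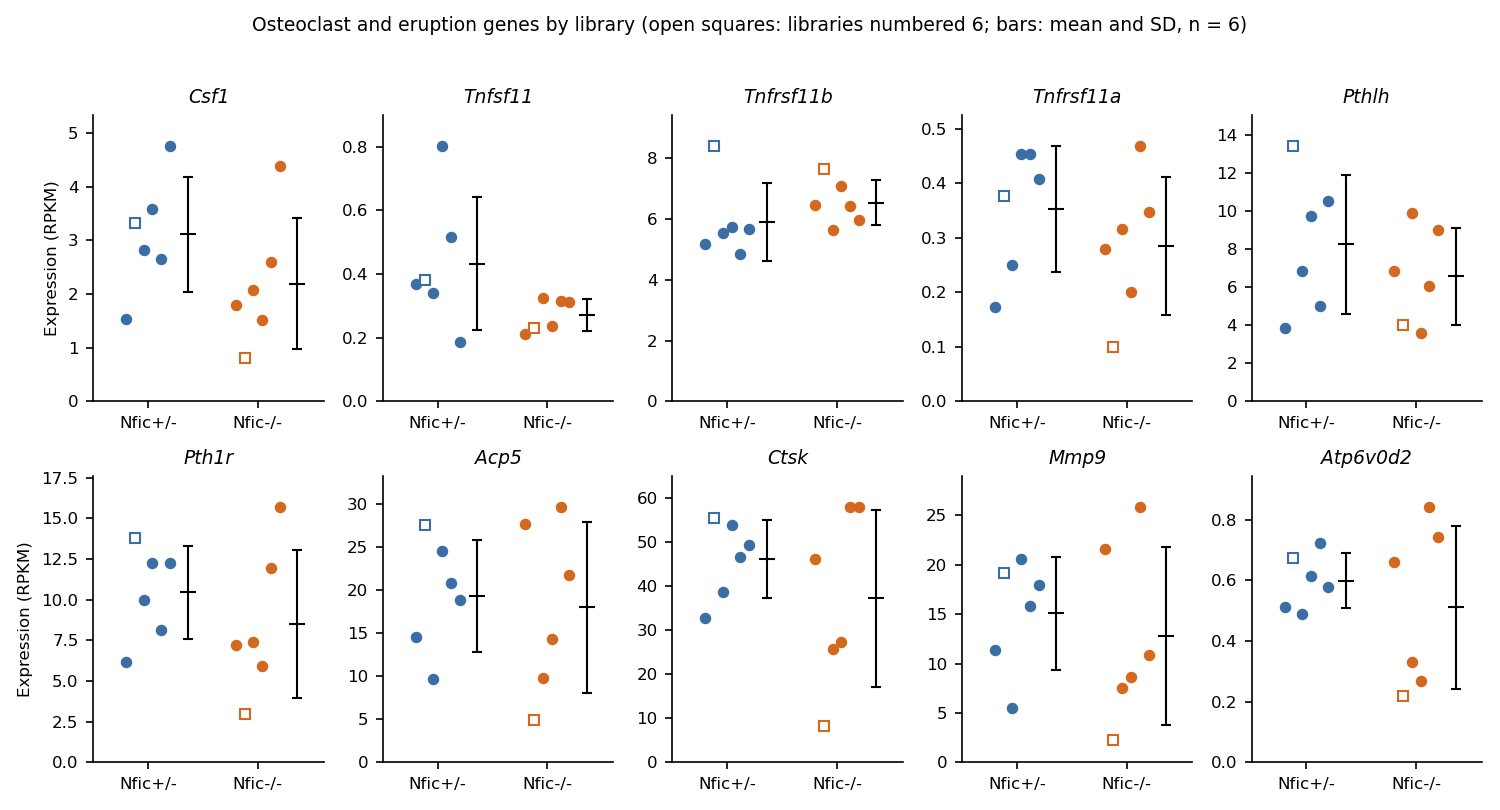
Expression in RPKM (vertical axes, each from 0) of each of the 10 genes in 6 Nfic+/- and 6 Nfic-/- libraries, 1 point a library, with the mean and SD beside the points and the libraries numbered 6 as open squares. The genotypes overlap in every panel, and null replicate 6 is the lowest point in 7 panels. The SD is wider in null molars for every gene except Tnfsf11, Tnfrsf11b and Pthlh.

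Csf1, the growth factor that osteoclast precursors need to survive, lies on chromosome 3 (107741048 to 107760469, minus strand, GRCm38). In heterozygous molars it ran from 1.54 to 4.76 RPKM with a median of 3.07, and in null molars from 0.810 to 4.38 RPKM with a median of 1.93. In 5 of 6 null libraries it was below the heterozygous median, and the sixth, null replicate 10, was the second highest of all 12. The difference was -0.40 in log2(RPKM + 1) (SE 0.239). It was -0.26 (SE 0.218) without null replicate 6, -0.48 within libraries 5 to 7 and -0.33 within libraries 8 to 10.

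Tnfsf11, which encodes RANKL, the ligand that drives osteoclast formation, was scarce in this part of the germ. The gene (chromosome 14, 78277445 to 78308043, minus strand) had 36 to 162 reads a library. Heterozygous molars ran from 0.187 to 0.802 RPKM with a median of 0.375, and null molars from 0.213 to 0.325 RPKM with a median of 0.275. All 6 null libraries lay below the heterozygous median, yet all 6 also lay above the lowest heterozygous library, number 10. The means were 0.432 ± 0.209 and 0.272 ± 0.0507 RPKM (SD, n = 6 each), so the spread was the wider one in heterozygous molars, where library 8 alone reached 0.802 RPKM. In the fit without a filter the difference was -0.16 in log2(RPKM + 1) (SE 0.0813), with an unadjusted p of 0.0733. It was -0.12 within libraries 5 to 7 and -0.20 within libraries 8 to 10, -0.09 without heterozygous replicate 8, and -0.05 (SE 0.0557) without the libraries numbered 8 and 9, which include the highest pair of heterozygous values and carry the intestinal transcripts.

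Tnfrsf11b, which encodes the decoy receptor osteoprotegerin, was the steadiest of the 10 genes, with the highest library at 1.73 times the lowest. It lies on chromosome 15 (54250619 to 54278484, minus strand). Heterozygous molars ran from 4.86 to 8.41 RPKM with a median of 5.61, and null molars from 5.64 to 7.66 RPKM with a median of 6.46. All 6 null libraries lay above the heterozygous median, and heterozygous replicate 6 was the highest of all 12. The difference was 0.14 in log2(RPKM + 1) (SE 0.111). Without heterozygous replicate 6 it was 0.23 (SE 0.0806, adjusted p = 0.569), and within the sets of libraries it was 0.06 for 5 to 7 and 0.22 for 8 to 10.

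Ligand and decoy can be set against each other within a library because both values are per length. Tnfsf11 amounted to 3.29% to 13.9% of Tnfrsf11b in heterozygous molars, with a median of 6.64%, and to 2.997% to 5.76% in null molars, with a median of 4.10%. The 3 highest ratios were heterozygous libraries 8, 9 and 5, and heterozygous libraries 6 and 10 fell among the null values. The ratio is given as a description, with no test. Across all 12 libraries the genes had a Pearson r of -0.33 and a Spearman rho of -0.38 (permutation test, adjusted p = 0.425 and 0.411), and r was -0.10 without the 2 libraries farthest from the Tnfsf11 median.

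**Figure D2:**
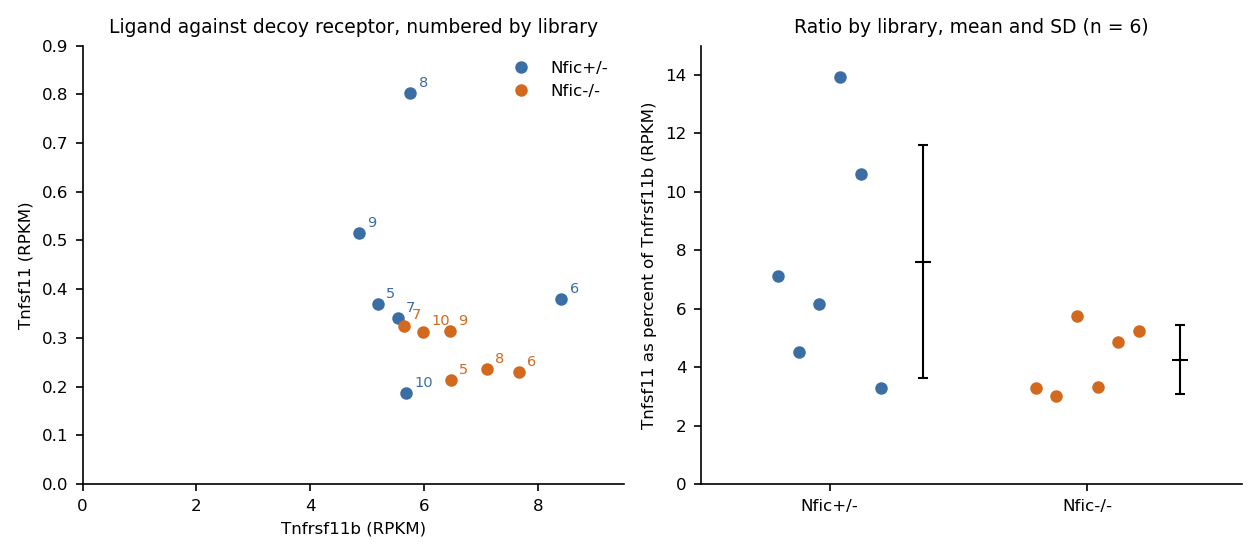
Left, Tnfsf11 against Tnfrsf11b in RPKM, 1 point a library with its number; right, Tnfsf11 as a percentage of Tnfrsf11b in each library, with the mean and SD (7.61 ± 3.99% in Nfic+/-, 4.25 ± 1.18% in Nfic-/-, n = 6 each). The null libraries lie together at low ligand, and the heterozygous libraries spread from 3.29% to 13.9%.

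Tnfrsf11a encodes RANK, the receptor for that ligand on osteoclast precursors, and had the lowest mean of the set at 0.319 RPKM. The gene (chromosome 1, 105780718 to 105847981, plus strand) had 35 to 221 reads a library. Heterozygous molars ran from 0.173 to 0.455 RPKM with a median of 0.392, and null molars from 0.0993 to 0.468 RPKM with a median of 0.298. Both the lowest and the highest library were null, numbers 6 and 9. The difference of -0.07 in log2(RPKM + 1) (SE 0.0740, in the fit without a filter) was about the size of its error, and was -0.04 within libraries 5 to 7 and -0.11 within libraries 8 to 10. It was -0.03 without null replicate 6, and -0.11 without heterozygous replicate 5 or without null replicate 9.

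Pthlh, the ligand by which the enamel organ signals to the follicle, was present at a mean of 7.40 RPKM. It lies on chromosome 6 (147252101 to 147264183, minus strand). Heterozygous molars ran from 3.85 to 13.4 RPKM with a median of 8.31, and null molars from 3.57 to 9.89 RPKM with a median of 6.45. Heterozygous replicate 6 was the highest library and null replicate 8 the lowest. The difference was -0.26 in log2(RPKM + 1) (SE 0.282), -0.12 within libraries 5 to 7 and -0.40 within libraries 8 to 10. Leaving out 1 library moved it to -0.43 (heterozygous replicate 5), -0.11 (heterozygous replicate 6), -0.16 (null replicate 6) or -0.13 (null replicate 8), and without both libraries numbered 6 it was -0.009.

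Pth1r, the receptor of that ligand, was at 6.17 to 13.8 RPKM in heterozygous molars with a median of 11.1, and at 2.97 to 15.7 RPKM in null molars with a median of 7.30. It lies on chromosome 9 (110722085 to 110747145, minus strand). The lowest and the highest library were again both null, numbers 6 and 10. The difference was -0.37 in log2(RPKM + 1) (SE 0.294). It was -0.14 (SE 0.240) without null replicate 6, -0.56 without null replicate 10, -0.70 within libraries 5 to 7 and -0.04 within libraries 8 to 10.

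Ctsk and Acp5 had the highest levels of the set. Ctsk encodes cathepsin K, the main collagen-degrading protease of osteoclasts (chromosome 3, 95499256 to 95509362, plus strand). It ran from 32.8 to 55.3 RPKM in heterozygous molars with a median of 48.0, and from 8.33 to 57.9 RPKM in null molars with a median of 36.7. Of the null libraries, numbers 9 and 10 lay above the heterozygous range, numbers 6, 7 and 8 lay below it, and number 5 lay within it. The difference was -0.52 in log2(RPKM + 1) (SE 0.373). It was -0.16 without null replicate 6, whose level was 19.4% of the mean of the other null libraries. Within libraries 5 to 7 it was -0.89, and within libraries 8 to 10 it was -0.14.

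Acp5 encodes tartrate-resistant acid phosphatase, the enzyme used to stain osteoclasts (chromosome 9, 22126727 to 22135711, minus strand). Heterozygous molars ran from 9.64 to 27.5 RPKM with a median of 19.8, and null molars from 4.91 to 29.6 RPKM with a median of 18.1. Null libraries 5 and 9 were the highest of all 12, and null replicate 6 was the lowest. The difference was -0.24 in log2(RPKM + 1) (SE 0.374) and turned to 0.06 (SE 0.296) without null replicate 6. Leaving out any other single library gave -0.42 to -0.11. It was -0.46 within libraries 5 to 7 and -0.01 within libraries 8 to 10.

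The proximal promoters of Ctsk and Acp5, the genes with the highest levels of the set, are shown as a description. Over the 12 libraries these genes had a Pearson r of 0.90 in log2(RPKM + 1), described with the other pairs. Whether promoter sequence has a part in that correlation was not tested. As background, PU.1 and MITF are known to drive Acp5 in osteoclasts, and MITF to drive Ctsk. Windows of 250 bases before to 50 after each start site (RefSeq, GRCm38.p6) were held for 7 of the 10 genes, 11 windows in all, and not for Tnfrsf11b, Mmp9 and Atp6v0d2. The Ctsk window is chr3:95498960-95499259 on the plus strand. Start sites 1 and 3 of Acp5 have the windows chr9:22135697-22135996 and chr9:22130549-22130848 on the minus strand. Each is written 5′ to 3′ along its gene, with capitals for the PU.1 core GAGGAA, the MITF M-box TCACATG and TTGGC, which is 1 arm of the nuclear factor I palindrome, on either strand.
Ctsk: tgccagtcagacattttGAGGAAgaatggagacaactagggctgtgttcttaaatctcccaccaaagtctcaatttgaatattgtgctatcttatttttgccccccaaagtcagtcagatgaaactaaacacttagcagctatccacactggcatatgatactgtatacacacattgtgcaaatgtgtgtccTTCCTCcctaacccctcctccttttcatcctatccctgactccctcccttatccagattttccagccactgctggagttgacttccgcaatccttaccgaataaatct
Acp5 start 1: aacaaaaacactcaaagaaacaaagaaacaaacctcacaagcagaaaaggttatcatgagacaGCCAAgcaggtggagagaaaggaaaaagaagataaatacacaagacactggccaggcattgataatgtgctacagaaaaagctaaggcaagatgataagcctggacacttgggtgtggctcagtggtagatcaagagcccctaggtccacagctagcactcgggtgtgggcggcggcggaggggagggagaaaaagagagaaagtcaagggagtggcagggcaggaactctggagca
Acp5 start 3: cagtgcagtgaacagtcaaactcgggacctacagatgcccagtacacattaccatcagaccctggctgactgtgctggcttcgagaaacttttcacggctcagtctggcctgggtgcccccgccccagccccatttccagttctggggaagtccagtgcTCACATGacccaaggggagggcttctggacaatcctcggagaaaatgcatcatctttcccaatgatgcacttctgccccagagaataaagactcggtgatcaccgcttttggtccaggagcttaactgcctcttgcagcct
Ctsk held 2 matches to GAGGAA, 1 of them on the opposite strand. Acp5 start 3 held the M-box, 91 bases before the start site, start 1 held a TTGGC match, and start 2, not shown, held none of these. Over all 11 windows the full nuclear factor I palindrome (TTGGC, any 5 bases, GCCAA) was in 0, TTGGC in 5, GAGGAA in 2, TCACATG in 1 and the AP-1 site TGANTCA in 0. TTGGC also lies inside the palindrome, and the other motifs were searched on both strands in the same way. Among 32851 promoter windows of the same length, 0.0365% held the palindrome, 46.7% TTGGC, 28.3% GAGGAA, 3.99% TCACATG and 7.81% TGANTCA. A match is only a run of letters in the window.

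Mmp9 encodes gelatinase B, a protease of osteoclasts that neutrophils also carry (chromosome 2, 164940780 to 164955850, plus strand). It ran from 5.51 to 20.6 RPKM in heterozygous molars with a median of 16.9, and from 2.28 to 25.8 RPKM in null molars with a median of 9.78. Again null libraries 5 and 9 were the highest and null replicate 6 the lowest, at 15.3% of the mean of the other null libraries. Of the 10 genes, Mmp9 varied most, with the highest library at 11.3 times the lowest. The difference was -0.42 in log2(RPKM + 1) (SE 0.450), -0.07 without null replicate 6, -0.66 without heterozygous replicate 7, -0.67 without null replicate 9, -0.45 within libraries 5 to 7 and -0.39 within libraries 8 to 10. Without both libraries numbered 6 it turned to 0.02 (SE 0.383).

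Atp6v0d2 encodes the d2 subunit of the vacuolar proton pump, which mouse osteoclast precursors need to fuse (chromosome 4, 19876841 to 19922605, minus strand, 42 to 215 reads a library). Heterozygous molars ran from 0.488 to 0.722 RPKM with a median of 0.596, and null molars from 0.220 to 0.842 RPKM with a median of 0.496. The null libraries again fell on both sides of the heterozygous range, with numbers 9 and 10 above it and 6, 7 and 8 below it. The difference was -0.10 in log2(RPKM + 1) (SE 0.105, in the fit without a filter), -0.16 within libraries 5 to 7 and -0.04 within libraries 8 to 10. It was -0.04 without null replicate 6, -0.05 without null replicate 8 and -0.16 without null replicate 9. The SD was 15.2% of the mean in heterozygous and 52.6% in null molars for Atp6v0d2, and 19.1% and 53.8% for Ctsk, without a test of the spread itself. This percentage was also larger in null molars for Csf1, Tnfrsf11a, Pth1r, Acp5 and Mmp9 (37.6% and 70.5% for Mmp9). It was smaller there for Tnfsf11, Tnfrsf11b and Pthlh. Without null replicate 6, null molars had 43.0 ± 15.8 RPKM of Ctsk and 0.569 ± 0.255 RPKM of Atp6v0d2 (SD, n = 5).

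**Figure D3:**
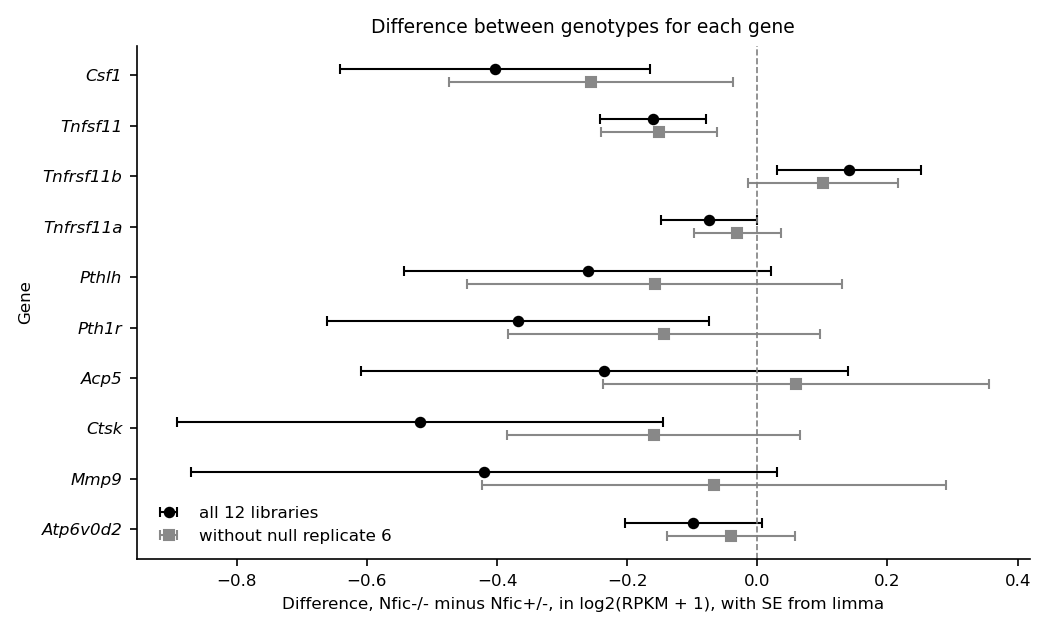
Difference between genotypes (Nfic-/- minus Nfic+/-, horizontal axis, log2(RPKM + 1)) with its SE from limma for each gene, from all 12 libraries (black circles) and without null replicate 6 (grey squares). With all libraries 9 of 10 points lie left of 0. Without null replicate 6, 8 of 10 do, and every osteoclast gene lies within 1 SE of 0. In that setting 4475 of 12094 genes were lower in the filtered table, and 9565 of 21002 in the fit without a filter.

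Ordered by mean RPKM over the 12 libraries, the set ran Ctsk, Acp5, Mmp9, Pth1r, Pthlh, Tnfrsf11b, Csf1, Atp6v0d2, Tnfsf11 and Tnfrsf11a, from 41.6 down to 0.319 RPKM. Neighbours in that order were compared within libraries by an exact 2-sided sign-flip test of log2(RPKM + 1), adjusted over the 9 comparisons. Mmp9 and Pth1r (adjusted p = 0.0785), Pthlh and Tnfrsf11b (adjusted p = 0.460), and Tnfsf11 and Tnfrsf11a (adjusted p = 0.486) did not differ beyond their spread. The other 6 steps held in at least 10 of 12 libraries, with adjusted p between 0.00110 and 0.0396. The order was the same in both genotypes but for the last pair, which changed places in null molars.

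The osteoclast genes varied together from library to library. Over 12 libraries, 21 of the 45 pairs of genes correlated past an adjusted p of 0.05 by Pearson r and 16 by Spearman rho (permutation tests with 100000 resamples). The share among pairs drawn from the whole table was not worked out, so the count is not shown to be particular to these genes. Some genes outside the set came as close as some members, as Acp5 had r = 0.92 with Cacnb3, between 0.90 with Ctsk and 0.96 with Mmp9. Without null replicate 6 the count by Pearson r came down to 6, with 17 at an unadjusted p under 0.05, and without both libraries numbered 6 it was 3. All 6 pairs among Acp5, Ctsk, Mmp9 and Atp6v0d2 passed by Pearson r, with r from 0.81 to 0.96. Acp5 and Mmp9 were closest (r = 0.96, adjusted p = 0.000300; rho = 0.94, adjusted p = 0.00157), and r was 0.90 without the 2 libraries farthest from the Acp5 median. For the 6 pairs, r was 0.71 to 0.93 without null replicate 6, 0.71 to 0.95 among heterozygous libraries alone and 0.84 to 0.97 among null libraries alone. It was 0.87 to 0.99 within libraries 5 to 7 and 0.66 to 0.93 within libraries 8 to 10. Under quantile normalization the 3 pairs with Atp6v0d2 no longer passed, with r = 0.60 for Acp5, 0.55 for Ctsk and 0.55 for Mmp9 (adjusted p = 0.0986, 0.136 and 0.141). Without null replicate 6, the pair of Ctsk and Mmp9 and that of Mmp9 and Atp6v0d2 missed the threshold (adjusted p = 0.0567 for both). By Spearman rho across the 12 libraries the pair of Ctsk and Mmp9 missed it as well (adjusted p = 0.0504). With 6 libraries in each of these subsets, 0 of the 45 pairs passed the adjusted threshold in either genotype or in libraries 8 to 10 by the exact permutation test, and 2 passed in libraries 5 to 7. The smallest p this test can give with 6 libraries is 0.00139. A single pair at that p has an adjusted p of 0.0625, so 1 pair alone could not pass. At an unadjusted p under 0.05 the counts were 10 among heterozygous libraries, 14 among null libraries, 12 in libraries 5 to 7 and 10 in the other set.

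The regulators fell on both sides of that pattern. Pth1r followed Csf1 (r = 0.94, adjusted p = 0.000300; rho = 0.93, adjusted p = 0.00157) and Ctsk (r = 0.90, adjusted p = 0.00146; rho = 0.89, adjusted p = 0.00326), and r was 0.95 and 0.80 without the 2 farthest libraries. Csf1 with Pth1r kept r = 0.99 within libraries 5 to 7 and 0.87 within libraries 8 to 10. Pth1r and its ligand Pthlh had r = 0.75 (adjusted p = 0.0114) and rho = 0.73 (adjusted p = 0.0329). That r was 0.73 (adjusted p = 0.0567) without null replicate 6 and 0.61 (adjusted p = 0.0941) under quantile normalization. Tnfrsf11a followed Ctsk with r = 0.81 (adjusted p = 0.00433) and rho = 0.76 (adjusted p = 0.0324), and r was 0.72 (adjusted p = 0.0567) without null replicate 6. Tnfsf11 passed with 0 of the other 9 genes and Tnfrsf11b with 0 of 9, and at an unadjusted p under 0.05 both counts were also 0. For Tnfrsf11b, r with the other genes was -0.33 to 0.10 over all libraries. It was -0.94 to -0.43 among null libraries and -0.10 to 0.78 among heterozygous libraries, a contrast that was not tested.

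**Figure D4:**
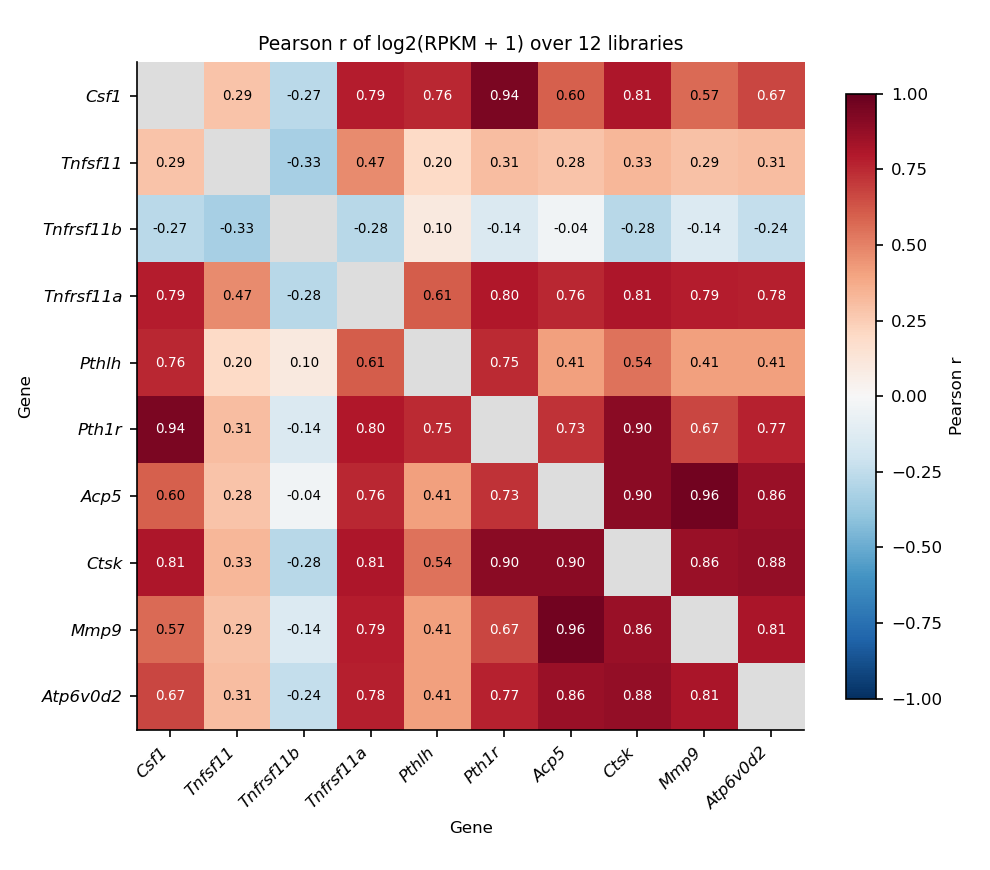
Pearson r of log2(RPKM + 1) over 12 libraries for every pair of the 10 genes (rows and columns), from blue (negative) to red (positive), with the diagonal in grey. The 4 osteoclast genes at the lower right share r of 0.81 to 0.96, and the Tnfsf11 and Tnfrsf11b rows stay between -0.33 and 0.47.

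Among other genes of the osteoclast programme, none passed the test between the genotypes. Of 20 genes of osteoclast differentiation and fusion, 12 were tested, 2 were higher and 10 lower in null molars, 0 passed the adjusted threshold, and 0 had an unadjusted p under 0.05. Their median difference was -0.22 in log2(RPKM + 1), beside -0.003 over all tested genes, of which 51.1% were lower. It was -0.09 without null replicate 6 and -0.05 without both libraries numbered 6. The 4 with the smallest p were Gab2, an adaptor of RANK signalling (1.65 ± 0.390 and 1.15 ± 0.480 RPKM), Fcer1g, a co-stimulatory adaptor (9.49 ± 2.96 and 6.79 ± 3.60), Fos, a transcription factor that osteoclasts require (2.15 ± 0.640 and 2.94 ± 1.22), and Csf1r, the receptor of Csf1 (8.71 ± 2.48 and 6.53 ± 3.04), heterozygous first (SD, n = 6 each). Null replicate 6 was the highest of all libraries for Fos, at 5.26 RPKM, and the lowest for Gab2, Fcer1g and Csf1r. Chosen after their values were seen, the fusion genes Dcstamp and Ocstamp had 0.198 ± 0.0859 and 0.166 ± 0.0576 RPKM in heterozygous molars, and the mature osteoclast receptor Calcr had 0.0337 ± 0.0175 RPKM (SD, n = 6). These fusion genes lay far under Ctsk and Acp5 on the same per-length scale.

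Genes of attachment and acid secretion were split, with 7 of 12 tested genes higher and 5 lower, a median difference of 0.007, and 0 at an unadjusted p under 0.05. Car2, the carbonic anhydrase that supplies protons, had 18.6 ± 6.19 and 13.6 ± 4.56 RPKM, and Slc4a2, the bicarbonate exchanger, had 18.8 ± 2.04 and 22.5 ± 5.11 RPKM (heterozygous and null, SD, n = 6 each). Of 17 tested subunits of the vacuolar proton pump other than Atp6v0d2, 15 were higher and 2 lower, where 51.1% of all tested genes were lower, and the median difference was 0.10. Atp6v1h, Atp6ap1 and Atp6v1e1, 3 of the 17, had an unadjusted p under 0.05, beside 5.34% of all tested genes, and an adjusted p of 0.934 each. Atp6v1h ran at 30.5 ± 1.41 and 34.5 ± 1.19 RPKM and Atp6ap1 at 65.1 ± 6.66 and 76.0 ± 7.34 RPKM (SD, n = 6 each), in the direction opposite to Atp6v0d2.

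A mixed list of cytokines, growth factors, their receptors and transcription factors with a known part in osteoclast support or eruption had lower means in null molars for 13 of 16 tested genes, beside 51.1% of all tested genes. The median difference was -0.17, -0.27 without heterozygous replicate 5 and -0.09 without null replicate 6. Of these 16, 0 passed the adjusted threshold and 1, Bmp2, had an unadjusted p under 0.05, beside 5.34% of all tested genes. Bmp2, a bone morphogenetic protein, had 18.7 ± 7.67 RPKM with 1 intact Nfic copy and 11.7 ± 5.06 RPKM with none (SD, n = 6 each). Sfrp1, a secreted Wnt inhibitor, had 17.1 ± 7.07 and 10.8 ± 6.21 RPKM, and its lowest library was null replicate 6 at 1.81 RPKM. Of 12 tested genes of parathyroid hormone receptor signalling, 5 were higher and 7 lower, the median difference was -0.02 (0.006 with each library centred on its median), and 0 had an unadjusted p under 0.05. The G protein subunit gene Gna11 had 21.0 ± 1.99 and 19.5 ± 2.75 RPKM and the kinase subunit gene Prkaca had 22.6 ± 4.205 and 20.5 ± 4.07 RPKM (SD, n = 6 each).

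Marker lists of other cell types differed in direction, and none of their genes passed the adjusted threshold. All 12 tested macrophage markers had lower means in null molars, beside 51.1% of all tested genes (median difference -0.44, or -0.24 without null replicate 6, with 0 at an unadjusted p under 0.05), and the list shares Csf1r with the osteoclast list. Their sum over 14 genes, none of which was absent, ran from 56.1 to 149.6 RPKM in heterozygous molars and in null ones from 36.2 to 140.6 RPKM, lowest in null replicate 6, and Lyz2 was the most abundant at a mean of 36.7 RPKM. Of 10 tested dental follicle markers 9 were lower (median difference -0.56), of 13 bone markers 12 were lower (-0.34, or -0.19 without null replicate 6), and of 7 tested odontoblast markers 7 were lower (-0.50). All 10 dental epithelium markers were higher (0.31), and 5 of 7 enamel markers were (0.18, but -0.04 without heterozygous replicate 6). Over these 5 lists 16 of 46 different tested genes had an unadjusted p under 0.05, beside 5.34% of all tested genes, and 0 passed the adjusted threshold. Examples are the proteoglycan gene Bgn (128 ± 22.1 and 85.1 ± 21.6 RPKM) of the follicle list and the keratin gene Krt14 (507 ± 77.3 and 691 ± 75.6 RPKM) of the epithelium list (heterozygous and null, SD, n = 6 each). Of 7 tested neutrophil markers 3 were higher and 4 lower, with a median difference of -0.02, which was 0.07 under quantile normalization and 0.27 without null replicate 6. Of 8 tested intestine markers 6 were higher and 2 lower (0.07), and this median ran from -0.44 to 0.58 with 1 library left out at a time.

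Of 60 relations between the 10 genes and 6 marker sums, 17 passed an adjusted p of 0.05 (permutation tests over 12 libraries, adjusted over the 60). The share that genes outside the set reach with these sums was not worked out. Pth1r followed the macrophage sum with r = 0.95 (adjusted p = 0.000300) and rho = 0.94 (adjusted p = 0.000300), and r was 0.89 without the 2 farthest libraries, 0.91 without null replicate 6, 0.95 within libraries 5 to 7 and 0.98 within libraries 8 to 10. Csf1 and Pthlh also followed it, with r = 0.91 and 0.90 (adjusted p = 0.00100 and 0.00105) and rho = 0.87 and 0.86 (adjusted p = 0.00612 and 0.00651). Ctsk had r = 0.80 (adjusted p = 0.0162) and rho = 0.75 (adjusted p = 0.0430) with the same sum, which came down to r = 0.61 without null replicate 6 and 0.56 without the 2 farthest libraries. Acp5 and Mmp9 did not pass with the macrophage sum (r = 0.60 and 0.57, adjusted p = 0.0839 and 0.101), but did with the neutrophil sum (r = 0.75 and 0.76, adjusted p = 0.0190 and 0.0186; rho = 0.74 and 0.73, adjusted p = 0.0430 and 0.0441). Without null replicate 6 those became 0.63 and 0.65. With the dental follicle sum 5 genes passed, among them Csf1 and Pth1r (r = 0.93 and 0.90, adjusted p = 0.000300 and 0.00180). These sums add RPKM, so the most abundant genes weigh most. In the follicle list that is Igfbp5 (mean 170 RPKM), and in the enamel list Amelx (mean 65219 RPKM). Against the enamel sum ran 5 genes, among them Pth1r (r = -0.82, adjusted p = 0.00930) and Ctsk (r = -0.69, adjusted p = 0.0381). Pthlh was also among these (r = -0.74, adjusted p = 0.0261), and had r = 0.07 with the dental epithelium sum (adjusted p = 0.872). Tnfsf11 and Tnfrsf11b passed with 0 of the 6 sums, and the part of these cell types in the results was not tested.

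**Figure D5:**
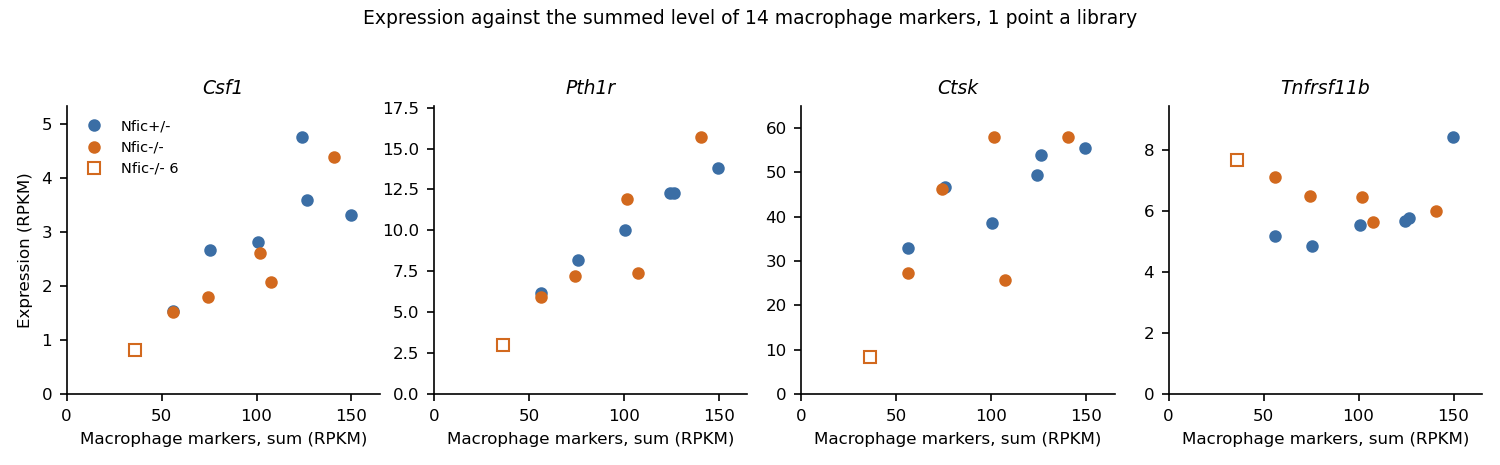
Expression of 4 genes in RPKM (vertical axes, from 0) against the summed RPKM of 14 macrophage markers (horizontal axis), 1 point a library, with null replicate 6 as an open square. Csf1, Pth1r and Ctsk run upward with the sum in both genotypes, from null replicate 6 at 36.2 RPKM upward, and Tnfrsf11b has r = -0.10 with it over all libraries, 0.72 among heterozygous and -0.92 among null libraries.

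The genes of the filtered table most like each member over the 12 libraries, with members left out, are given as a description by Pearson r of log2(RPKM + 1). Csf1 was nearest to Mapre2, Mrc1 and Kank2 (r = 0.99 each), and Pth1r to Sfpi1 (the gene of PU.1), Csf1r and Unc93b1 (r = 0.99, 0.99 and 0.98). Tnfrsf11a was nearest to Vcam1, Mov10 and Stom (0.97, 0.96 and 0.94), and Pthlh to Pnrc1, Acot1 and Tmem106b (0.97, 0.97 and 0.95). Tnfrsf11b was nearest to Lefty1, Rbm7 and Susd4 (0.95, 0.93 and 0.93). Among the osteoclast genes, Ctsk was near to Fads3 and Snx10 (0.94 and 0.93), Acp5 to Cacnb3, Nr2f2 and Lgr6 (0.92, 0.89 and 0.87), Mmp9 to Cacnb3, Col2a1 and Abi3 (0.88, 0.88 and 0.87), and Atp6v0d2 to Urgcp and Hexa (0.91 each). Tnfsf11 had the weakest likenesses of the 10, to Myo10, Mvp and Rps12 (0.87, 0.71 and 0.67).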

How the data were processed

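RNA of 12 molar samples was measured as described above. The values were deposited by the authors as log2 of RPKM, 1 column a library. Per the submitters' processing notes TopHat2 and mm10 were used, while the aligner's version, the counting step and its gene models were not given in the sources used here. Genes without reads carry a floor, taken as 0.9 reads, which gave the depths together with exon lengths from GENCODE. With these depths, and at the gene length that fit best, all reads of the members came out whole within 0.01 reads. The planned tests had assumed linear RPKM, so the log2 values were back-transformed and then tested on the scale of log2(RPKM + 1). This scale understates changes of low genes. No count test was made on RPKM values.

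Genes averaging at least 1 RPKM over the libraries were compared with limma 3.58.1 (R 4.3.3), with an intensity trend and genotype as the only term, 2-sided, with Benjamini-Hochberg adjustment over all genes at 0.05. The procedure was tested on simulated data in which each gene varied independently, unlike in these libraries, and the outcome is not reported here. Nfic had an exact permutation test, and correlations had permutation tests of log2(RPKM + 1). Gene coordinates are from GENCODE (GRCm38). Python 3.11.15, numpy 2.4.6, pandas 2.3.3, scipy 1.17.1 and matplotlib 3.10.9 were used. Marker sums add RPKM over a list.

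The members and the 13 gene lists were chosen with earlier results of these data known. Named are the 10 members, Nfic, the 4 genes of each list with the smallest p (2 for lists of other cell types), the most abundant markers, and the 3 genes most like each member; of these some are given only by count or are not reported here. Predicted genes are not named. Dspp, Dcstamp, Ocstamp and Calcr fall outside this rule and were chosen after their values were seen. Replicates are libraries of littermates per the labels, and p-values measure the spread between these libraries.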

Additional observations from a re-analysis of the deposited data

Results flagged for a closer look

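In heterozygous replicate 6 the level of Tnfrsf11b was 8.41 RPKM, and its gap to the next heterozygous library took 0.699 of the group's whole range, which is above Dixon's critical value at the 0.05 level for 6 samples. This was 1 of 20 groups looked at (10 genes in each genotype), and chance alone marks about 1 group in 20. Without that library the difference between null and heterozygous molars was 0.23 in log2(RPKM + 1), where it was 0.14 with it, and limma gave an adjusted p of 0.569.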

How the results depend on the processing

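Other pseudocounts, filters, scalings and variance models, each library left out in turn, and the subsets of libraries named above made 25 other settings, and none of them brought any of the genes at 1 RPKM or more past the threshold. In the fit without a filter on low values, 1 gene outside the set passed without null replicate 7 (adjusted p = 0.0472). Of 247 alternatives for the 10 members, 0 passed (smallest adjusted p = 0.37) and 3 turned the direction: Acp5 at 0.0598 without null replicate 6 and at 0.17 without both libraries numbered 6, and Mmp9 at 0.0197 without both. With 1 library left out at a time the Acp5 difference ran from -0.42 to 0.06. The cause was not tested. The Nfic difference kept its direction but had a p above 0.05 without both libraries numbered 6 (-0.40) and without the libraries numbered 8 and 9 (-0.56). Leaving out 1 library at a time it ran from -0.63 to -0.41. The 21 member pairs past the threshold became 11 under quantile normalization, 6 without null replicate 6, 3 without both libraries numbered 6, 2 in libraries 5 to 7, and 0 in libraries 8 to 10, within heterozygous and within null libraries. These subsets hold fewer samples, and in those of 6 libraries 1 pair alone could not reach the adjusted threshold. Leaving out 1 library at a time gave 6 to 23 pairs. The r of Tnfsf11 with Tnfrsf11b turned to 0.0732 under quantile normalization, and that of Tnfsf11 with Tnfrsf11a to -0.00429 without the libraries numbered 8 and 9. Of 325 list medians in other settings 2 moved beyond their spread, for odontoblast markers (-0.83 in libraries 5 to 7 and -0.18 in libraries 8 to 10). Across those settings 8 of 13 lists kept the sign of their median.

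The series text describes the mice as pairs of littermates, which no label ties to the library numbers. With the number 5 to 10 as a replicate block, 0 genes passed the threshold (smallest adjusted p = 0.0872), 981 had an unadjusted p under 0.05 where 646 did without it, and no member's call changed. The unadjusted limma p with the block and without it was 0.0505 and 0.114 for Csf1, and 0.00128 and 0.0115 for Nfic. For Tnfsf11 it rose, at 0.101 with the block and 0.0733 without it. For Nfic the exact sign-flip test over equal numbers gave p = 0.0312. Between libraries of the same number, deviations from the genotype's mean had an r of 0.492, 0.00502, 0.310, 0.667, 0.688 and 0.802 for numbers 5 to 10. For heterozygous libraries 8, 9 and 10 the closest null library had the same number, and only number 9 was matched in both directions. Libraries 8 and 9 of both genotypes also share the intestinal transcripts, whose part in this likeness was not tested. These values cannot settle whether the numbers mark litters, and the main fit did not pair the samples by them. The reads behind Tnfsf11, Tnfrsf11a and Atp6v0d2, at most 221 a library, limit what could be detected for them.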
